A study of Mus musculus with 6 samples.

Results

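The V segments of the T cell receptor are the alternative first pieces of its variable domains, and a T cell joins 1 of them, by DNA recombination in the thymus, to the rest of its alpha chain (Trav segments) and 1 to the rest of its beta chain (Trbv segments). The receptor made in this way binds peptides on MHC molecules. CD4 T cells, among them the Foxp3-positive regulatory T cells, recognise peptides on MHC class II, and CD8 T cells on MHC class I, so that the segments a T cell class carries reflect both the frequency of each rearrangement and selection in the thymus. Members were all features whose symbol starts with Trav or Trbv, which gave 163 of 31053: 35 Trbv segments on chromosome 6 and 128 Trav segments on chromosome 14. Of these, 25 Trbv and 81 Trav had at least 1 count in the cells kept, and the other 10 and 47 had none.

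Single cells of pancreatic lymph nodes, which drain the pancreas, were prepared from 6 mice and sequenced on a droplet platform that gives each captured RNA molecule a unique molecular identifier (UMI). All 6 mice carried a floxed gene. The 3 Cre-negative mice had no CD4-Cre transgene and the 3 Cre-positive mice carried it. Cre driven by Cd4 sequences recombines floxed DNA already in thymocytes that still express both coreceptors, so that later CD8 cells are reached as well as CD4 cells. Each library came from a separate mouse, and the labels give no strain, sex or age.

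The libraries held 8209 to 10936 barcodes and 47149014 to 61321105 UMIs, 51777 cells were kept in all, and any pair of libraries shared 16 to 39 cell barcodes. T cells were classed by their own UMIs. Conventional CD4 T cells (12173, between 1813 and 2399 per mouse) had a Cd4 UMI and none of Foxp3, Cd8a or Cd8b1. Regulatory T cells (1735, between 247 and 346 per mouse) had a Foxp3 UMI and none of Cd8a or Cd8b1. CD8 T cells (8496, between 1157 and 1811 per mouse) had a Cd8b1 UMI and none of Cd4 or Foxp3. A further 10650 T cells met none of these rules. Markers that the gates did not use followed the labels. Cd40lg, a helper T cell gene, had UMIs in 30.03% of conventional CD4 and 1.38% of CD8 cells, Nkg7, a cytotoxic granule gene, in 1.96% and 88.1%, and Ctla4, an inhibitory receptor of regulatory T cells, in 79.8% of regulatory and 15.2% of conventional CD4 cells. Cd79b, a B cell receptor gene that the gates did not use, had UMIs in 2.21% of conventional CD4, 5.82% of regulatory and 11.6% of CD8 cells, and in 97.4% of B cells. Its part in the results was not tested. Csf1r, a macrophage gene, was seen in 0 to 0.118% of the cells of the 3 classes. Trdc, the constant gene of the delta chain, had UMIs in 2.64% of conventional CD4, 1.96% of regulatory and 2.87% of CD8 cells, and leaving those cells out gave 18 calls in the CD8 against CD4 comparison below, as with them.

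The V exons of the segments on which the results turn are shown first, from 5′ to 3′, as annotated by GENCODE M21 on the mouse build GRCm38 (mm10). Each is the 3′ end of the exon that encodes the variable domain. The first pair are Trav16n (chr14:53351332-53351621, plus strand) and Trav16d-dv11 (chr14:53047532-53047821, plus strand), the segments with the largest gain of share in CD8 T cells among Trav. Capitals mark the bases at which these differ. Only 3 of the 290 bases shown do, and the whole exons were 98.0% identical.
Trav16n: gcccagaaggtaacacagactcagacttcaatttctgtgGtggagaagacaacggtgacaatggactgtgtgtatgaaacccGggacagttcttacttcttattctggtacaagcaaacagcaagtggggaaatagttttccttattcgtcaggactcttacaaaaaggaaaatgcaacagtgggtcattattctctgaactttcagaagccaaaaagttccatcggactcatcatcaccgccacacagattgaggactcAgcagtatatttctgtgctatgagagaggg
Trav16d-dv11: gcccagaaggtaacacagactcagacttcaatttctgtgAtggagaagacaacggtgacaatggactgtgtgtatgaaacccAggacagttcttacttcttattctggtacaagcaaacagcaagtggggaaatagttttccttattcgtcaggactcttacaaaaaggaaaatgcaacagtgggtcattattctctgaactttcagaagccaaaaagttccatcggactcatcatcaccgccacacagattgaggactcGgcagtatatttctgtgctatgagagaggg

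The Trav part of the locus is duplicated, and segments whose name carries d or n are copies of a plain segment. A read assigned to one copy could therefore come from another. The copies are those of the mm10 build, and the strain of the mice is not given, so the mice may carry other copies. This limit also holds for the shares of plain, d and n copies below. Of the 128 Trav segments, 39 had no stretch of 90 bases that was unique among the annotated V segments, and 36 of these had no UMI while the other 3 had 3 UMIs between them. Trav16n had 59.4% and Trav16d-dv11 58.0% unique stretches of that length. Values of single Trav16 and Trav14 copies are therefore uncertain, and each is given with the sum of its family. All 35 Trbv segments were unique in every such stretch. Trbv13-2 (chr6:41121543-41121832) and Trbv13-3 (chr6:41130296-41130585), both on the plus strand, are shown because they are members of 1 family and differed in their CD8 against CD4 bias. Capitals mark where the pair differs.
Trbv13-2: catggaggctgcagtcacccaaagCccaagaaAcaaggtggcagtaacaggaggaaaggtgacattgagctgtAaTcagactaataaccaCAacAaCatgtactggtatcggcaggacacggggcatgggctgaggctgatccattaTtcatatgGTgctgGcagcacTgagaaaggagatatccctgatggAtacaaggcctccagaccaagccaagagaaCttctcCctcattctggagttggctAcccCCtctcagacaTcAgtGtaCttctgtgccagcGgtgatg
Trbv13-3: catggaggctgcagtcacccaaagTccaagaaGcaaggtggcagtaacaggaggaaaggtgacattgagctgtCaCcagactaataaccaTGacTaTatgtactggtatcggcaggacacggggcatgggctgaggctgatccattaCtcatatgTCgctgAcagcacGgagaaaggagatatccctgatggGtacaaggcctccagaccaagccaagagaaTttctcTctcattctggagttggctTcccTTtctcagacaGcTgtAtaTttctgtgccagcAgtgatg

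Trbv2 (chr6:41047706-41047995, plus strand) is shown as the most used Trbv segment of conventional CD4 T cells and the one that lost the largest share in CD8 T cells.
Trbv2: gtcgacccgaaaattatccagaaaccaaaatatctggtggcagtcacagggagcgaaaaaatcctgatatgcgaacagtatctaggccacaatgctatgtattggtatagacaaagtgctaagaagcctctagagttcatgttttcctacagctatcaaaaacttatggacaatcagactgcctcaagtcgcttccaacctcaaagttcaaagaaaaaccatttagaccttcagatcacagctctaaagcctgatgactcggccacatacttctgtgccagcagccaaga

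Segment use was measured as the share of a segment among all Trbv or all Trav UMIs of a mouse and class. Such a share counts RNA molecules. Whether each molecule came from the receptor that its cell expresses was not tested, and some cells held UMIs of several segments of a chain (below). UMIs were not scaled by length, and the V exons compared above are of nearly equal length. Trbv UMIs numbered 539 to 689 per mouse in conventional CD4, 74 to 114 in regulatory and 337 to 435 in CD8 T cells, and Trav UMIs 785 to 1124, 76 to 107 and 578 to 766. A share of regulatory T cells thus rests on far fewer molecules than one of the other classes. PCR and capture are not modelled by these counts, so intervals below cover counting error only.

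A minority of T cells had a UMI of each chain. A Trbv UMI was found in 23.9% ± 1.91 of conventional CD4 T cells (mean ± SD, n = 6 mice), 24.2% ± 2.37 of regulatory and 21.7% ± 1.79 of CD8 T cells. A Trav UMI was found in 31.2% ± 3.09, 23.0% ± 2.38 and 29.0% ± 2.67. Free RNA can place such UMIs in cells that do not make a receptor. In B cells, which do not, 0.211% of 10429 cells had a Trbv UMI (exact 95% binomial interval over the pooled cells 0.132% to 0.319%) and 0.316% a Trav UMI (0.218% to 0.444%), at a median of 4406 UMIs per cell. Over the 6 mice these shares ran from 0.0828% to 0.402% and from 0.138% to 0.478%. B cells here had Cd79a and Ms4a1 UMIs and none of Cd3d, Cd3e or Cd3g. Cells that took up free Cd3 RNA were thus left out, so these shares may be too low. UMIs of either chain were present in 46.8% of conventional CD4, 40.1% of regulatory and 43.5% of CD8 T cells, and of both chains in 7.98%, 6.92% and 6.79%. The constant gene of the alpha chain, Trac, in contrast had UMIs in 95.8% of conventional CD4 T cells and that of the beta chain, Trbc2, in 98.9%.

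Fewer CD8 than conventional CD4 T cells had a segment UMI, although CD8 cells had the higher median depth (6055 against 5018 UMIs). The difference was -2.14 percentage points ± 0.623 (SD) for Trbv and -2.18 ± 1.58 for Trav, lower in 6 of 6 mice for each (exact two-sided sign-flip test over mice, p = 0.031, the smallest that 6 mice allow). With each cell thinned to 2000 UMIs the shares were 10.6% in conventional CD4, 11.4% in regulatory and 8.02% in CD8 T cells for Trbv, and 15.1%, 10.3% and 12.6% for Trav, after leaving out 124, 45 and 29 shallower cells. The CD8 class was again lower than conventional CD4 in 6 of 6 mice for both chains. Regulatory T cells had a Trav UMI less often than conventional CD4 T cells by -8.17 percentage points ± 2.58 (6 of 6 mice, exact p = 0.031) and a Trbv UMI about as often (0.327 ± 2.27, higher in 3 of 6, exact p = 0.719).

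**Figure D1:**
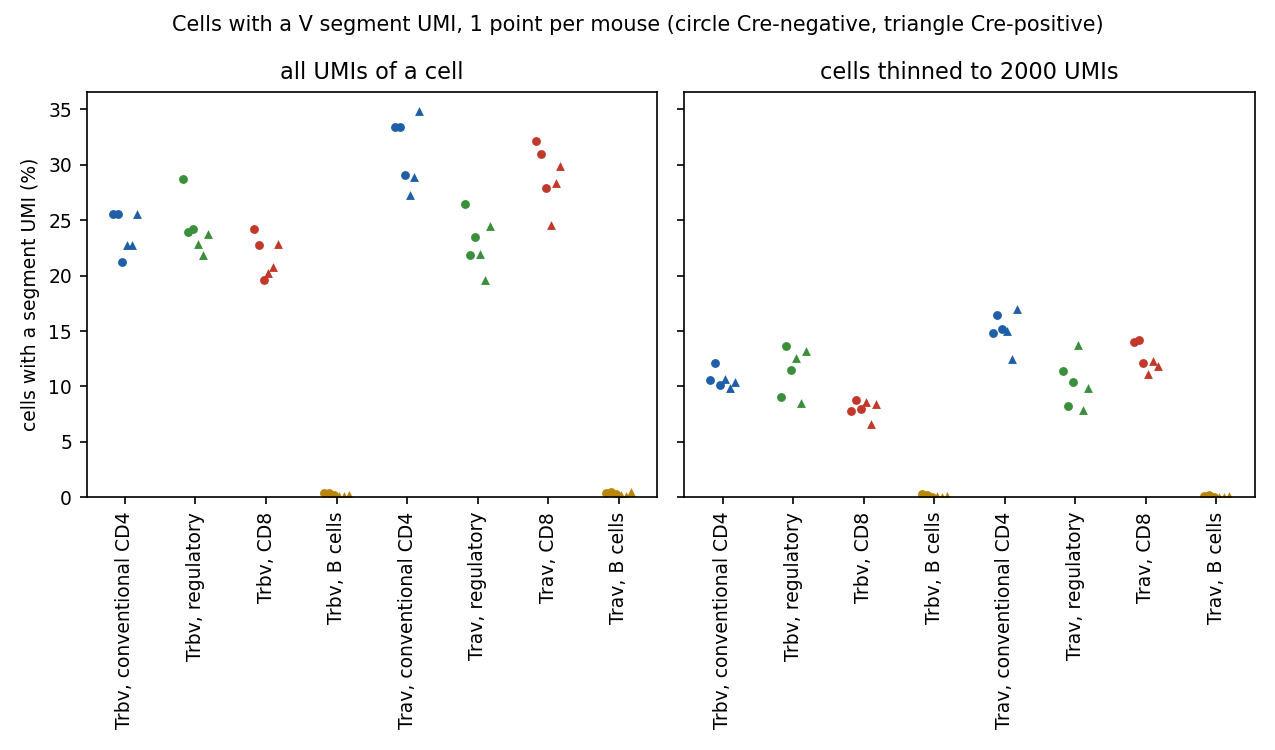
Percent of cells with at least 1 Trbv or Trav UMI in each mouse (circles Cre-negative, triangles Cre-positive) for 3 T cell classes and B cells, with all UMIs of a cell (left) and with cells thinned to 2000 UMIs (right). Regulatory T cells lie below conventional CD4 T cells for Trav (23.0% against 31.2%) and B cells lie near 0.

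A few segments made up most of the Trbv UMIs. In conventional CD4 T cells Trbv2 led with 16.7% to 18.9% of Trbv UMIs over the 6 mice (median 17.3%), a narrow range. Trbv12-2 followed with 13.1% ± 1.38 and Trbv13-2 with 11.7% ± 1.20, and the ranges of this pair overlapped (11.03% to 15.01% and 9.95% to 13.2%). Trbv13-1 (7.16% ± 1.06), Trbv19 (6.72% ± 1.44) and Trbv15 (6.20% ± 1.39) came next and did not differ from each other beyond their spread. These 6 segments together held 62.5% of Trbv UMIs in conventional CD4, 57.7% in regulatory and 53.6% in CD8 T cells. Along the chromosome, use ran from Trbv1 at the start of the cluster to Trbv31, which lies beyond the others on the opposite strand and still took 3.995% ± 0.457. The 10 Trbv segments without a UMI were all annotated as pseudogenes. Trbv24 carries the same annotation but had 120 UMIs in the cells kept.

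Trav UMIs were spread over more segments. Trav16n was the most used in conventional CD4 T cells with 10.1% ± 1.84 of Trav UMIs, followed by Trav3-3 (7.69% ± 0.907), Trav14d-3-dv8 (6.40% ± 1.39), Trav13n-4 (6.02% ± 1.10), Trav5-4 (5.18% ± 0.982) and Trav6n-6 (3.48% ± 0.864). From Trav3-3 to Trav5-4 each segment overlapped the next in its range over mice. The effective number of segments, the exponential of the Shannon entropy, says how many equally used segments would give the same evenness. With all sums drawn down to the same 74 Trbv UMIs it was 12.6 ± 0.287 in conventional CD4, 12.99 ± 1.28 in regulatory and 13.7 ± 0.582 in CD8 T cells. With 76 Trav UMIs it was 25.6 ± 0.550, 24.4 ± 1.96 and 19.6 ± 1.504. So small a draw lowers these numbers, and they serve to compare classes only. Without it the Trav number ran from 36.1 to 38.8 over the mice in conventional CD4 and from 24.7 to 30.4 in CD8 T cells. CD8 T cells used Trbv segments more evenly than conventional CD4 T cells (a difference of 1.19, higher in 6 of 6 mice) and Trav segments less evenly (-6.07, lower in 6 of 6), each with p = 0.031 in the exact two-sided sign-flip test.

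CD8 and conventional CD4 T cells of the same mouse were compared next, with edgeR's quasi-likelihood test over 10713 genes, in which the total of the chain served as the library size of a segment, so that a fold change is one of the share within the chain. By this test 46.4% of all genes tested differed at an adjusted p of 0.05 or less, 23.8% higher and 22.6% lower in CD8. Of the 14 Trbv segments that passed the filter on low counts, 5 were higher and 5 lower in CD8 T cells, and of the 19 Trav segments 2 were higher and 6 lower. The median size of the log2 fold change was 0.85 for these Trbv and 0.42 for these Trav segments, beside 0.16 for all genes tested. Between genotypes in conventional CD4 T cells, where no segment was called, it was 0.12 for Trbv, 0.27 for Trav and 0.086 for all genes. Segments rest on few UMIs, and the part of counting error in these sizes was not tested. The other 21 Trbv and 109 Trav segments had too few UMIs for the test. Shares within a chain have a fixed sum, so a large change of 1 segment moves the shares of the others the other way.

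Trbv2 moved most among the segments that were lower in CD8 T cells. It took 16.7% to 18.9% of Trbv UMIs in the conventional CD4 cells of the 6 mice and 5.83% to 9.41% (median 7.40%) in their CD8 cells. The ranges did not overlap. The log2 fold change of its share was -1.22 ± 0.12 (SE, adjusted p = 7.8e-12, edgeR). Trbv1 had 4.38% to 7.11% (median 5.92%) in conventional CD4 and 2.08% to 4.03% (median 3.32%) in CD8 cells, again without overlap, with a log2 fold change of -0.92 ± 0.21 (adjusted p = 0.00023). Trbv15 fell from a median of 5.49% to 4.08% (log2 fold change -0.69 ± 0.20, adjusted p = 0.0031), and the lowest conventional CD4 value, 5.0%, lay above the highest CD8 value, 4.79%. Trbv20 (-0.99 ± 0.24, adjusted p = 0.00064) and Trbv31 (-0.90 ± 0.25, adjusted p = 0.0024) were lower in CD8 cells in 6 of 6 mice, while the ranges over mice overlapped. DESeq2 did not call Trbv15 (adjusted p = 0.082) or Trbv31 (adjusted p = 0.060).

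Trbv3, Trbv14 and Trbv29 showed the opposite bias. Trbv3 had 2.32% to 4.36% (median 3.43%) of Trbv UMIs in conventional CD4 and 4.03% to 8.89% (median 5.91%) in CD8 cells, a log2 fold change of 0.93 ± 0.19 (adjusted p = 9.5e-05, edgeR). Trbv14, a rare segment, had 0.752% to 2.60% and 2.37% to 4.17%, with a log2 fold change of 1.32 ± 0.28 (adjusted p = 0.00012). Each of these was higher in CD8 cells of 6 of 6 mice, and the ranges overlapped at their edges. Trbv29 rose from a median of 2.97% to 4.56% (0.80 ± 0.22, adjusted p = 0.0020). This call was lost in 4 of 17 alternative fits, among them DESeq2 (adjusted p = 0.063). Trbv12-2 had 11.03% to 15.01% in conventional CD4 and 14.2% to 19.9% in CD8 cells, with a log2 fold change of 0.35 ± 0.11 (adjusted p = 0.0067). Of 16 alternative fits 4 did not call Trbv12-2, among them DESeq2 (adjusted p = 0.14) and the fit that counted each cell once per segment (adjusted p = 0.060).

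The bias in share and in absolute level differ, because CD8 T cells had fewer Trbv UMIs in all: 40.5 ± 2.74 CPM (CPM, the chain's UMIs over all UMIs of the class, scaled) against 54.8 ± 3.39 in conventional CD4 cells. With the whole library as the reference (TMM factors), 20 segments were called, 5 higher and 15 lower in CD8, instead of 7 higher and 11 lower. On that scale the log2 fold change of Trbv12-2 was 0.02 (adjusted p = 0.89) and that of Trbv29 0.47 (adjusted p = 0.067). The Trbv13 family showed members with unlike values. Trbv13-3 had 1.74% to 4.45% in conventional CD4 and 3.49% to 8.52% in CD8 cells (0.99 ± 0.24, adjusted p = 0.00065), higher in 5 of 6 mice, whereas Trbv13-2 (-0.11 ± 0.12, adjusted p = 0.49) and Trbv13-1 (-0.22 ± 0.17, adjusted p = 0.30) were not called. The sum of the family was 21.7% ± 1.36 and 22.7% ± 3.11 (0.06 ± 0.09, not called). Trbv13-3 and 3 Trav segments below, Trav14n-3, Trav14-1 and Trav21-dv12, fell outside the naming rule, which asks for the same direction in every mouse, and were named after their values were seen.

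**Figure D2:**
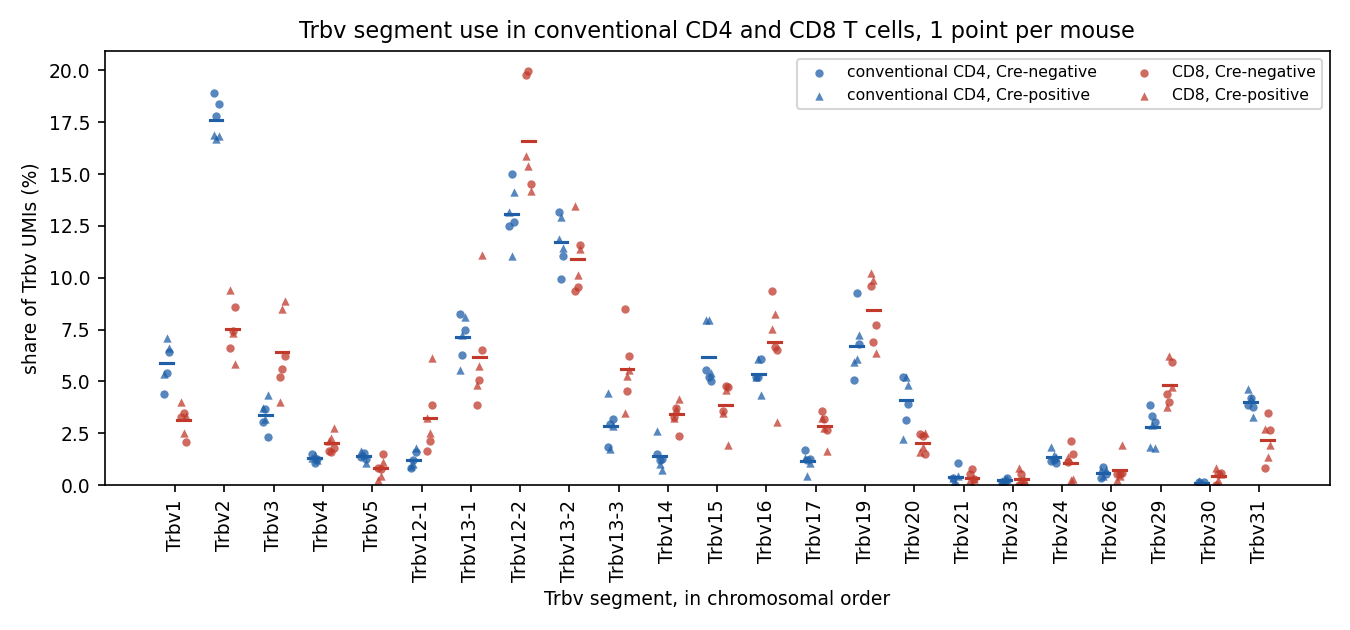
Share of Trbv UMIs for each Trbv segment with more than 1 UMI, in chromosomal order, for conventional CD4 (blue) and CD8 (red) T cells, 1 point per mouse (circles Cre-negative, triangles Cre-positive) with a line at the mean of 6 mice. The 6 conventional CD4 values of Trbv2 (16.7% to 18.9%) lie above the 6 CD8 values (5.83% to 9.41%).

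Among Trav segments the Trav16 family stood out on the CD8 side. Trav16n had 7.38% to 12.9% (median 10.2%) of Trav UMIs in conventional CD4 and 18.9% to 24.9% (median 22.0%) in CD8 T cells. Its near-identical copy Trav16d-dv11 had 1.93% to 3.65% (median 2.75%) and 4.83% to 8.06% (median 6.07%). Neither pair of ranges overlapped. The log2 fold changes were 1.11 ± 0.09 for Trav16n (adjusted p = 4.5e-14, edgeR) and 1.19 ± 0.15 for Trav16d-dv11 (adjusted p = 9.1e-09). Summed over its 3 members, which the reads cannot always tell apart, the family held 13.2% ± 1.97 in conventional CD4, 13.5% ± 4.46 in regulatory and 29.0% ± 2.54 in CD8 T cells, a log2 fold change of 1.13 ± 0.08 (adjusted p = 3.2e-17) for CD8 over conventional CD4.

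Segments of the Trav14, Trav4 and Trav5 families were lower in CD8 T cells. The rise of the Trav16 family from 13.2% to 29.0% by itself lowers the share of every other Trav segment. Its part in the values below was not tested. Trav14d-3-dv8 had 4.36% to 8.07% (median 6.52%) in conventional CD4 and 1.75% to 4.12% (median 3.08%) in CD8 cells. These ranges did not overlap, and the log2 fold change was -1.03 ± 0.18 (adjusted p = 6.2e-06). Trav4-4-dv10 (-1.06 ± 0.28, adjusted p = 0.0013) and Trav5-4 (-0.75 ± 0.18, adjusted p = 0.00043) were lower in 6 of 6 mice, with ranges of 1.51% to 3.32% against 0.343% to 2.25% and of 3.41% to 6.24% against 1.55% to 4.50%. Trav14n-3 (-1.13 ± 0.29, adjusted p = 0.0014) and Trav21-dv12 (-0.85 ± 0.30, adjusted p = 0.018) were lower in 5 of 6 mice, and Trav14-1 (-0.63 ± 0.21, adjusted p = 0.0093) in 4 of 6. The call of Trav21-dv12 was lost without Cre-negative 3 (adjusted p = 0.13) or Cre-positive 2 (adjusted p = 0.087), and that of Trav14-1 without Cre-positive 2 (adjusted p = 0.060), and DESeq2 called neither (adjusted p = 0.14 and 0.16).

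Summing members by family gave the same picture with less dependence on which copy a read was assigned to. Trav4 fell from 5.55% ± 1.25 in conventional CD4 to 2.27% ± 0.818 in CD8 T cells (-1.28 ± 0.18, adjusted p = 4.5e-08, edgeR) and Trav14 from 12.7% ± 1.92 to 6.70% ± 1.19 (-0.92 ± 0.12, adjusted p = 1.9e-08). Trav9 (-0.64 ± 0.19), Trav5 (-0.58 ± 0.14) and Trav21 (-0.85 ± 0.30) also passed, while the large families Trav3, Trav6, Trav7 and Trav13 did not, with log2 fold changes between -0.13 and 0.04. Copies marked n held 26.1% ± 2.84 of Trav UMIs in conventional CD4 and 35.9% ± 2.20 in CD8 T cells, plain segments 55.9% ± 2.34 and 47.3% ± 2.56, and copies marked d 17.9% ± 2.42 and 16.8% ± 3.10. Trav16n is itself a copy marked n. The gain of all copies marked n together was smaller than that of Trav16n alone, so it is not a trait of these copies as a group.

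**Figure D3:**
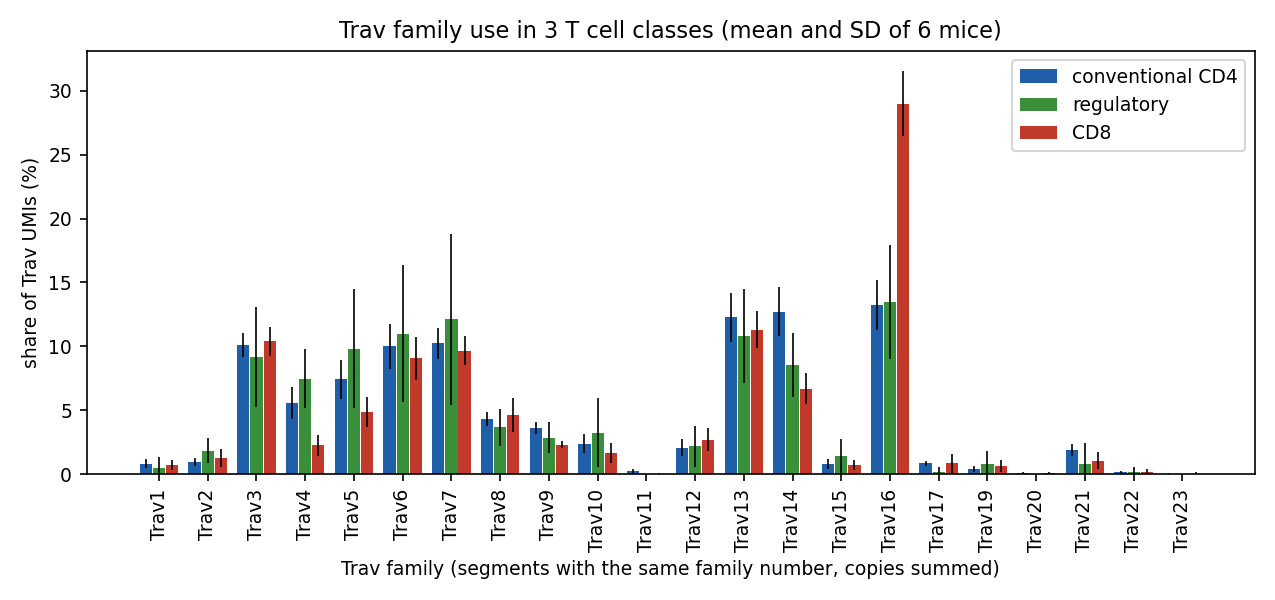
Share of Trav UMIs by Trav family in conventional CD4 (blue), regulatory (green) and CD8 (red) T cells, as mean and SD of 6 mice. Trav16 reaches 29.0% in CD8 T cells against 13.2% in conventional CD4 T cells.

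**Figure D4:**
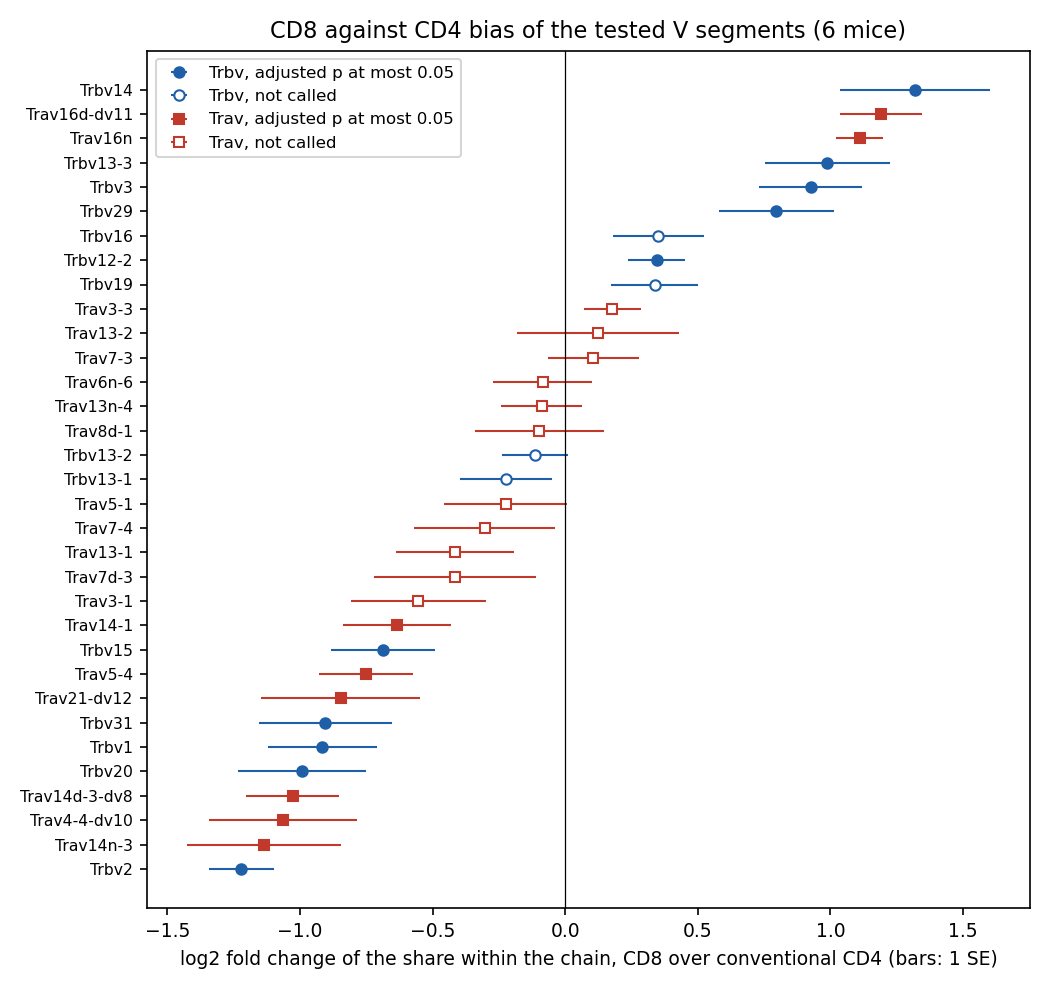
Log2 fold change of the share within the chain, CD8 over conventional CD4 T cells, with 1 SE, for the 33 segments that passed the filter on low counts (circles Trbv, squares Trav, filled where the adjusted p was 0.05 or less). Trbv14 is at the top with 1.32 and Trbv2 at the bottom with -1.22.

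Regulatory T cells were compared with the conventional CD4 T cells of the same mouse in the same way. Of 10153 genes tested, 39.4% differed at an adjusted p of 0.05 or less (19.8% higher, 19.6% lower). Of 11 Trbv segments tested 1 was higher, and of 11 Trav segments 1 was lower. Trbv3 had 3.16% to 9.46% (median 7.87%) of Trbv UMIs in regulatory against 2.32% to 4.36% in conventional CD4 T cells, with a log2 fold change of 1.08 ± 0.31 (adjusted p = 0.0042, edgeR), higher in 5 of 6 mice. Trav14d-3-dv8 had 1.87% to 4.55% (median 2.72%) against 4.36% to 8.07%, with a log2 fold change of -1.10 ± 0.32 (adjusted p = 0.0059), lower in 5 of 6 mice. Its copy Trav14n-3 had -0.06 ± 0.45 (adjusted p = 0.93), and the sum of the Trav14 family was called with -0.60 ± 0.20 (adjusted p = 0.017). Neither Trbv3 nor Trav14d-3-dv8 moved the same way in every mouse here, so in this comparison both fell outside the naming rule and were named after their values were seen. Trbv3 and Trav14d-3-dv8 were thus the segments called in regulatory T cells, and in CD8 T cells the share of each differed from conventional CD4 in the same direction (0.93 and -1.03). Both comparisons share the conventional CD4 sums. Trbv13-1 (-0.71 ± 0.32, adjusted p = 0.074), Trav5-4 (0.58 ± 0.27, adjusted p = 0.081) and Trbv16 (0.48 ± 0.28, adjusted p = 0.17) came next and did not pass. Trbv2 had 6.76% to 17.5% of Trbv UMIs in regulatory T cells (median 15.1%) and a log2 fold change of -0.28 ± 0.18 (adjusted p = 0.22). With TMM factors for all rows 6 segments were called, 1 higher and 5 lower, beside a Trav level of 62.0 ± 7.73 CPM in regulatory against 88.6 ± 7.72 in conventional CD4 T cells.

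The genotypes were compared last, 3 Cre-positive against 3 Cre-negative mice within each class. No segment was called by edgeR in conventional CD4 T cells, where 0.00909% of 10998 genes were called and 13 Trbv and 27 Trav segments tested. None was called in CD8 T cells (0.0472% of 10587 genes, 0.0283% higher and 0.0189% lower, 14 Trbv and 15 Trav segments tested) or in regulatory T cells (0% of 8500 genes, 3 Trbv segments tested), and DESeq2 called 0 in each class as well. At an unadjusted p under 0.05 there were 0 Trbv and 4 Trav segments in conventional CD4, 0 and 0 in CD8 and 0 in regulatory T cells, where 5%, 6.46% and 5.38% of all genes tested passed that threshold. The log2 fold changes of the segments tested ran from -0.84 to 0.81 in conventional CD4, from -0.49 to 0.62 in CD8 and from -0.39 to 0.58 in regulatory T cells. With 3 mice a group at this depth, differences of that size in single segments did not reach the threshold, which does not show that the genotypes were alike.

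In conventional CD4 T cells the smallest p-values belonged to Trav13-1, Trav4-2 and Trav14d-3-dv8, none of which passed. Trav13-1 had 2.22%, 2.17% and 2.46% of Trav UMIs in the Cre-negative and 4.33%, 2.56% and 4.27% in the Cre-positive mice (log2 fold change 0.69 ± 0.27, adjusted p = 0.94, edgeR). Trav4-2 had 1.92%, 2.28% and 2.35% against 1.40%, 0.758% and 1.51% (-0.84 ± 0.34, adjusted p = 0.94), and Trav14d-3-dv8 6.27%, 8.07% and 7.59% against 5.35%, 4.36% and 6.76% (-0.40 ± 0.19, adjusted p = 0.95). The sum of the Trav14 family had -0.31 ± 0.13 (adjusted p = 0.94) and that of the Trav13 family, with the smallest p of the families, 0.35 ± 0.13 (adjusted p = 0.86, edgeR). The groups did not overlap for Trav13-1 and Trav4-2 and overlapped for Trav14d-3-dv8. Trbv2 had 18.9%, 17.8% and 18.4% against 16.9%, 16.7% and 16.8%, also without overlap, and a log2 fold change of -0.13 ± 0.13 (adjusted p = 0.96). In all, 5 of the 40 segments tested in conventional CD4 T cells, 1 of 29 in CD8 and 0 of 3 in regulatory T cells had shares that did not overlap between genotypes. Of all genes tested the share without overlap was 9.91%, 10.5% and 10.1%, with the level of a gene outside the segments taken as its CPM, so the segments' shares lay near or below that background.

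In CD8 T cells Trav14d-3-dv8 (0.50 ± 0.31), Trbv13-1 (0.48 ± 0.32) and Trbv12-1 (0.62 ± 0.42) had the smallest p-values, with adjusted p of 0.83, 0.84 and 0.84 in edgeR. The sum of the Trav14 family had 0.31 ± 0.22 (adjusted p = 0.85). In regulatory T cells the 3 segments tested were Trbv13-2 (0.58 ± 0.41), Trbv12-2 (-0.39 ± 0.36) and Trbv2 (0.23 ± 0.35), with adjusted p of 0.98, 0.98 and 0.99. Trav5-4, which had too few UMIs there for the test and was singled out after its values were seen, had 5.61%, 2.63% and 4.04% of Trav UMIs in the regulatory T cells of the Cre-negative mice and 13.1%, 10.2% and 11% in those of the Cre-positive mice, from 46 UMIs in all. These groups did not overlap. The same held for Trbv5, Trav7-4, Trav4-3 and Trav12-3, which with Trav5-4 made 5 of the 85 segments with a UMI in regulatory T cells. Of all genes tested there, 10.1% did not overlap. Those genes had passed the filter on low counts, as only 3 of these 85 segments did, so the bases differ. The sum of the Trav5 family, which passed the filter, had a log2 fold change of 1.07 ± 0.43 (unadjusted p = 0.016, adjusted p = 0.85, edgeR) and was not called. Whether the CD8 against CD4 bias itself differed between genotypes was tested as an interaction, and 0 of 16 Trbv and 27 Trav segments passed (0.0718% of 11142 genes did, 0.0628% higher and 0.00898% lower). At an unadjusted p under 0.05 there were 1 Trbv and 5 Trav segments, beside 5.31% of all genes tested, led by Trav14d-3-dv8 (0.94 ± 0.33, adjusted p = 0.66), Trav14n-3 (1.56 ± 0.59, adjusted p = 0.75) and Trav16n (-0.40 ± 0.17, adjusted p = 0.89). The family sums had 0.64 ± 0.22 for Trav14 (adjusted p = 0.62) and -0.26 ± 0.15 for Trav16 (adjusted p = 0.96). Trav13, the family of smallest p, had -0.59 ± 0.19 (adjusted p = 0.59, edgeR) and did not pass.

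**Figure D5:**
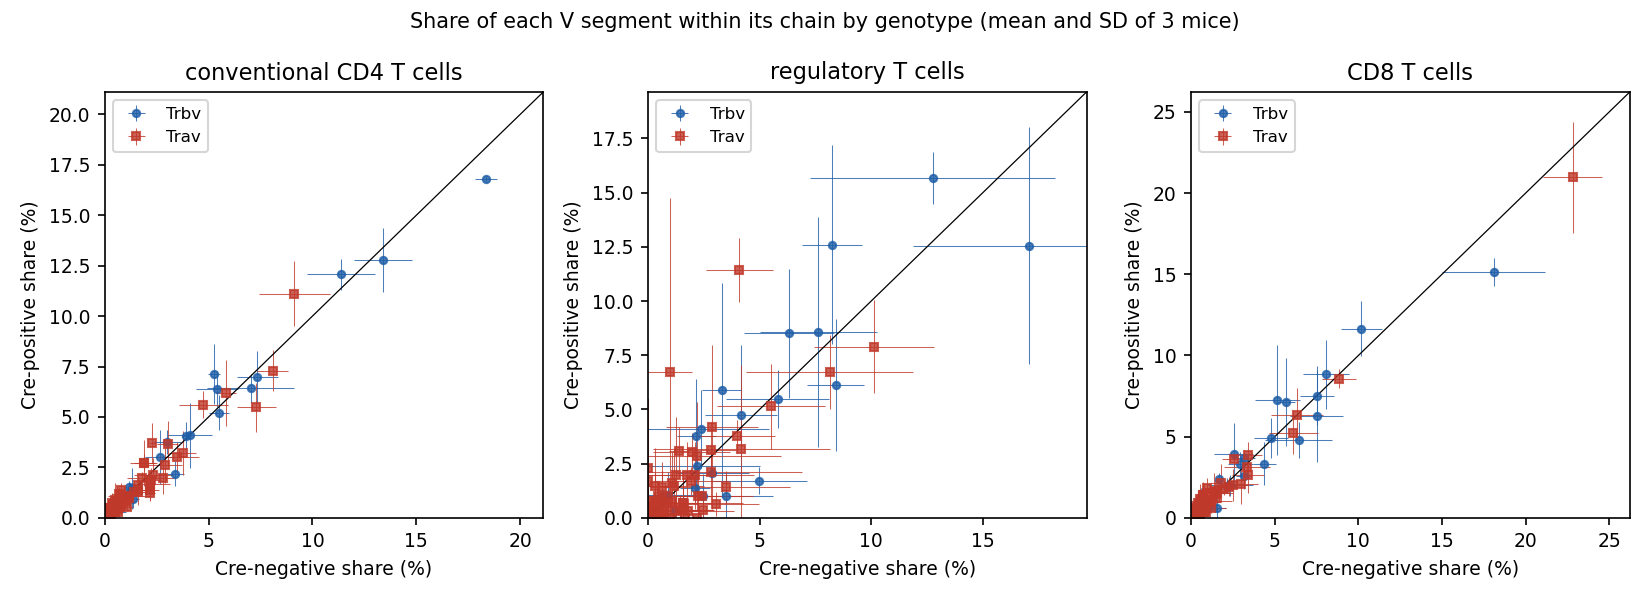
Mean share of each V segment within its chain in Cre-positive (vertical axis) against Cre-negative mice (horizontal axis), with the SD of 3 mice, in 3 T cell classes, and the line of equal shares. In conventional CD4 and CD8 T cells the segments lie along the line, and in regulatory T cells, with 74 to 114 Trbv UMIs per mouse, they scatter more widely.

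Over all segments, the distance between the profiles of mice was also compared. The total variation distance, the share of UMIs that would have to move to another segment to make a pair of profiles equal, had a median of 9.82% between conventional CD4 Trbv profiles of mice of the same genotype (6 pairs) and 9.65% between those of different genotype (9 pairs). For Trav it was 17.7% and 17.96%. Between conventional CD4 and CD8 T cells of the same mouse the median was 22.5% for Trbv (range 19.3% to 30.4%) and 28.6% for Trav (23.4% to 29.6%), so that every one of these lay above every distance between mice within conventional CD4 T cells (at most 12.1% and 20.8%). Distances fall with the number of UMIs, and regulatory T cells, with the fewest, had the largest ones between mice (medians of 27.2% and 45.1% within a genotype). From conventional CD4 to regulatory T cells of the same mouse the medians were 22.3% for Trbv and 37.8% for Trav. Between mice within CD8 T cells the Trbv distances ran from 10.3% to 22.02% in the same genotype (median 14.6%) and from 10.3% to 23.5% between genotypes (median 12.8%), which overlaps the range between the classes. The Trav distances there reached 22.2% and 21.5%, below every distance between the classes. The share of cells with a segment UMI was compared between genotypes as well. In conventional CD4 T cells it was 24.1% ± 2.51 and 23.7% ± 1.65 for Trbv (exact two-sided permutation p = 1) and 32.0% ± 2.48 and 30.3% ± 3.97 for Trav (p = 0.6), where 3 mice against 3 cannot give a p below 0.1. In regulatory T cells the Trbv share was 28.7%, 23.9% and 24.2% in the Cre-negative and 22.8%, 21.9% and 23.7% in the Cre-positive mice. These groups did not overlap (25.6% ± 2.71 and 22.8% ± 0.938, exact two-sided permutation p = 0.1). With each cell thinned to 2000 UMIs the same shares were 11.4% ± 2.27 and 11.4% ± 2.53 (exact p = 1).

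Some cells carried UMIs of more than 1 segment of a chain. Among conventional CD4 T cells with at least 2 Trbv UMIs, 36.1% of 576 had them from different segments, and 50.0% of 1231 for Trav. In cells called doublets and left out, the same shares were 56.1% of 41 and 58.1% of 62. For Trav, 29.1% of the conventional CD4 cells with several segments had all of them from 1 family. Trav16d-dv11 and Trav16n were seen together in 221 cells, 51.8% of the cells with the former and 17.1% of those with the latter. Trav14d-3-dv8 and Trav14n-3 were seen together in 78 cells. The most frequent Trbv pair was Trbv12-2 and Trbv13-2, which lie next to each other, in 84 cells (7.43% and 9.04%). When segment UMIs were counted only in cells with at most 1 segment per chain, the CD8 against CD4 log2 fold change was 1.34 for Trav16n, 1.11 for Trav16d-dv11 and -1.25 for Trbv2.

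Trav11, the alpha segment of the invariant receptor of natural killer T cells, and Trav1, that of mucosal-associated invariant T cells, were examined with Zbtb16, the transcription factor both lineages need. A Trav11 UMI was found in 9 conventional CD4, 0 regulatory, 1 CD8 and 8 unclassed T cells, and 7, 1 and 8 of these had a Zbtb16 UMI. Among all conventional CD4 T cells with any Trav UMI, 0.450% of 3776 had one. Trav11d, whose sequence has no unique stretch, had no UMI. Of the stretches of Trav11 itself, only 0.394% were unique among the annotated V segments. Few reads of Trav11 could thus be told from those of another segment, so its cell counts are uncertain and may be too low. Trav1 was found in 38 conventional CD4, 3 regulatory, 22 CD8 and 32 unclassed T cells, of which 1 had a Zbtb16 UMI.

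The partners of the V segments in the receptor were read from the same fits. In CD8 against conventional CD4 T cells 6 of 7 constant genes were tested, and 3 were lower, Trac (-0.41 ± 0.02), Trbc1 (-0.17 ± 0.02) and Trbc2 (-0.20 ± 0.01), and 3 higher, Trdc (0.78 ± 0.08) and the gamma chain genes Tcrg-C2 (0.87 ± 0.20) and Tcrg-C4 (0.91 ± 0.20). Of the CD3 complex, which carries the signal of the receptor, Cd3d, Cd3e and Cd3g were higher (0.23, 0.07 and 0.07) and Cd247 lower (-0.23). Of 10 signalling genes 7 were lower, with Cd5, a negative regulator of receptor signalling, at -0.74 ± 0.03, and 1 was higher, Themis (0.34 ± 0.03), which is needed in thymic selection. In regulatory T cells Trac was lower by -0.55 ± 0.03 on the log2 scale and Themis by -1.50 ± 0.07, 3 of 4 constant genes and 3 of 4 CD3 complex genes tested were lower, and 4 signalling genes were higher and 4 lower, Cd5 among the former (0.53 ± 0.05). These counts stand beside the 46.4% and 39.4% of all genes called. Joining and diversity segments (76 features) had too few UMIs for any test, as did Rag1, Rag2, Dntt and Ptcra, genes of receptor rearrangement, in both class comparisons. No constant, complex or signalling gene was called between genotypes in any class.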

How the data were processed

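Cells of pancreatic lymph nodes from 6 mice were measured on the 10x Genomics platform, 1 library per mouse. The authors deposited raw UMI counts for each gene in each barcode, obtained with Cell Ranger 6.1.2 on mm10, per the submitters' processing notes. The kit's read end and the annotation release were not given in the sources used here. Which end is read decides how often a molecule covers the V exon.

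Cells needed at least 500 UMIs, 300 genes and a mitochondrial share of at most 10%. Removed next were the highest Scrublet scores (scanpy 1.11.5) at 0.8% per 1000 barcodes, 480 to 914 cells per library. T cells had a Cd3d, Cd3e or Cd3g UMI and none of Cd79a, Ms4a1 or Lyz2. Cells are not replicates, so counts were summed per mouse and class and fitted over all genes with edgeR 4.0.16 (robust quasi-likelihood F test, filterByExpr, Benjamini-Hochberg adjustment over all genes tested, threshold 0.05). Offsets were the chain total for V segments and TMM library sizes for other genes. The mouse was a block in class comparisons. DESeq2 1.42.0 was an alternative. Other values were compared by exact permutation or sign-flip tests over mice. Only the CD8 against CD4 fit and the genotype fit in conventional CD4 T cells were run on simulated counts. These had the same spread for every gene and no effect of mouse, so they do not show how the fits do on real counts. Annotation and sequences came from GENCODE M21, in which all 163 members were found by identifier. Members, gene lists and the rule for named segments (highest share, largest fold with 6 of 6 mice in 1 direction, or the 3 of smallest p) were chosen with earlier results of these data known. The floxed gene is not reported here.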

Additional observations from a re-analysis of the deposited data

Results flagged for a closer look

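In 8 of 96 sets of 6 mice, 1 mouse lay so far from the other 5 that its gap to the nearest took more of the range than Dixon's limit allows, and chance alone gives about 1 in 20. In regulatory T cells, Cre-negative 2 was low for Trbv2 (6.76% of Trbv UMIs, the others 14.0% to 17.5%) and high for Trav14n-3 (6.58% of Trav UMIs) and Trav21-dv12 (3.95%). Cre-positive 2 was high for Trbv1 in regulatory T cells (11.6%) and Cre-positive 3 for Trbv13-1 in CD8 T cells (11.1%). Cre-negative 3 was high for Trav4-4-dv10 in both conventional CD4 (3.32%) and CD8 T cells (2.25%), where the other mice had at most 1.89% and 1.04%. The share of regulatory T cells with a Trbv UMI was high in Cre-negative 1 (28.7%).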

How the results depend on the processing

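The CD8 against CD4 count of 18 segments ranged from 12 (DESeq2, or a gate of at least 2 Cd4 or Cd8b1 UMIs) to 23 (no low-count filter) over the alternatives, and from 17 to 22 when 1 mouse was left out. The count of 2 for regulatory T cells became 6 with TMM or with RLE factors for all genes and 1 with the gate of 2 UMIs, which left fewer cells and fewer segments to test. Counts between genotypes were 0 under every alternative run, and that gate could not be applied to genotype in regulatory T cells. Replicate numbers are shared by the groups but did not pair the mice (correlations of conventional CD4 deviations 0.02, -0.16 and 0.15), and with the replicate block the genotype counts were 0, 0 and 0. Without the mouse block the class counts were 18 and 2. Segment UMIs from single-segment cells only, an alternative chosen after seeing the data, gave 15 and 3 calls. With 5 mice no exact p below 0.0625 is possible, and without 1 mouse the CD8 minus CD4 share of cells was -2.30 to -2.02 points for Trbv and -2.51 to -1.62 for Trav, regulatory minus CD4 for Trav -8.74 to -7.50, and the effective number 1.04 to 1.33 for Trbv and -6.64 to -5.58 for Trav. Thinned to 2000 UMIs, the share of regulatory T cells with a segment UMI differed between genotypes by 0.0176 points for Trbv (-2.80 unthinned) and 0.499 for Trav (-1.94 unthinned). With the gate of 2 UMIs the effective number of Trbv segments was 1.30 higher in CD8 (5 of 6 mice, exact p = 0.0625) and differed by -0.325 between genotypes in CD4. For Trav, regulatory minus CD4 was -1.07 with doublets kept (exact p = 0.031) and 1.34 with each cell counted once per segment, and that counting gave genotype differences of 0.385 in CD4 and -0.173 in CD8, and the cause was not tested. Regulatory T cells, with 74 to 114 Trbv UMIs per mouse, limit what their comparisons can show.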
